A study of Mus musculus with 6 samples.

Results

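The genes described here encode subunits of the 5 complexes of mitochondrial oxidative phosphorylation. A gene was taken where a probe set of the array carried its symbol alone and the symbol began with Ndufa, Ndufb, Ndufc, Ndufs or Ndufv, with Uqcr, with Atp5 or with Cox and a digit from 4 to 8, or was Sdha, Sdhb, Sdhc or Sdhd. This gave 90 genes of 18193 named on the array, read by 179 probe sets. They comprised 36 genes of complex I, 4 of complex II, 8 of complex III, 17 of complex IV and 17 of complex V. A further 8 genes, Ndufaf1 to Ndufaf8, share the Ndufa letters but encode assembly factors of complex I, and they are described apart. Ndufa4 and Ndufa4l2 were counted with complex I by their symbols, although the Ndufa4 product is now assigned to complex IV.

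RNA came from 2 mouse embryonic stem cell lines in which Dnmt1, Dnmt3a and Dnmt3b, the genes of the DNA methyltransferases, are knocked out. One line expresses full-length DNMT1 throughout, and the other expresses DNMT1 lacking 602 amino acids at its N-terminus. They are called the full-length and the deletion line, and both lack the 3 endogenous genes, so neither is a wild type. Day 0 cells were grown in 10% FBS with leukaemia inhibitory factor (LIF). By day 4 they had been embryoid bodies for 1 day and an adherent culture without LIF for 3 days, and by day 7 they had had 3 more days in medium with 10% KSR and 10 ng/ml Activin A. The title of the deletion sample at day 0 was followed, since its source label speaks of differentiated cells. There was 1 array for each line and day and no replicate, so the DNMT1 form and the line that carries it cannot be told apart. The p-values rest on these 6 arrays alone. Part of their error term comes from how far the changes between days differ between the 2 lines, with 2 residual degrees of freedom. The larger weight, 5.63 prior degrees of freedom, comes from the spread of all genes tested at a similar level. The part from the lines holds array noise and any true difference between the courses of the lines together. A gene whose lines respond differently therefore gets a larger error.

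Complexes I to IV pass electrons from NADH and succinate to oxygen. Complexes I, III and IV pump protons as they do so, and complex V, the ATP synthase, uses the returning protons to make ATP. Most subunits are encoded in the nucleus and the remaining ones in mitochondrial DNA. Embryonic stem cells draw heavily on glycolysis, and the balance with respiration is known to shift as they leave the naive state. Several subunits of complex IV exist as paired isoforms, with one form in most tissues and the other in heart and skeletal muscle, lung or testis.

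Levels are log2 MAS5 signals, each relative to the other genes of the same array. Signals below a floor of 5.37 on the log2 scale were set to it, and 13277 genes whose mean signal reached the floor were tested. Of the 90 genes, 88 passed that filter. These 88 include the 8 assembly factors, so counts and medians of the subunit genes over the 88 cover them too. Cox8b, a muscle isoform of complex IV, lay between 5.37 and 5.42, and the probe set of Ndufb4 was at the floor on all 6 arrays, so neither was measured. Probe sets differ in how brightly they bind, so levels are compared between arrays and not between genes.

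Cell state markers moved as follows. The summed signal of 10 stem cell markers was between 15.63 and 16.65 on the log2 scale, and 4 of the 10 fell at day 4 by the test described below (Klf2, Klf4, Esrrb and Tfcp2l1). The 5 primed epiblast markers summed to 11.25 and 11.43 at day 0 and to 13.33 and 13.63 at day 4, and 4 of them rose. The 3 measured markers of the primitive streak went from summed signals of 8.14 to 9.66 by day 4 in full-length cells and from 7.86 to 10.23 in deletion cells, and none was called. Of 6 visceral endoderm markers 3 rose at day 4. The 10 fibroblast markers summed to 12.61 and 13.83 at day 0 and to 10.06 and 10.20 at day 4, and 5 of them fell. The sums cover only markers whose mean signal reached the floor. Of 5 primitive streak markers on the array 3 did, and of 8 heart and muscle markers 6 did. In bulk RNA, fewer cells of a type and less RNA per cell cannot be told apart. Dnmt1 was between 8.37 and 9.65 and Dnmt3b between 8.21 and 9.71. Which part of each transcript the probes read is not known here, so these levels do not check the knockout.

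Most of the subunit genes were steady across all 6 arrays. The difference between a gene's highest and lowest array had a median of 0.45 (log2) over the 88 genes, against 0.88 over all genes tested. It was below 1 for 79 of the 88, which is 89.8%, against 58.0% of all genes. Part of that contrast goes with brightness. Among the 1058 genes whose mean level lay in the middle range of the subunit genes, from 11.72 to 13.18, the median range was 0.59, and it was 0.43 for the 44 subunit genes in that band. The steadiest was Uqcrb, a small subunit of complex III, which read 14.43, 14.38 and 14.45 in full-length cells at days 0, 4 and 7 and 14.49, 14.43 and 14.48 in deletion cells. Next came Ndufa4, whose arrays spanned 0.14, and Atp5pb, which forms part of the stalk that holds the ATP synthase together, at 0.15.

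By complex, the median range was 0.36 in complex V, 0.43 in complexes I and II, 0.57 in complex III and 0.69 in complex IV. Brightness was not matched in this ranking. Complex V had the highest median level, 13.19, and complex IV includes genes with a mean level as low as 6.06. The complex I assembly factors had a median range of 0.88, equal to that of all genes. Mitochondrial ribosomal proteins, which translate the mitochondrially encoded subunits, had 0.50 over 76 genes, and cytoplasmic ribosomal proteins had 0.53 over 45. The 9 genes with a range of 1 or more were Ndufa4l2, Cox7b2, Cox7a1, Cox6a2, Cox7c, Ndufb1, Atp5md, Atp5g1 and Cox4i2. Of these 9, 5 belong to complex IV, and 4 of those 5 are the isoforms Cox7b2, Cox7a1, Cox6a2 and Cox4i2.

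**Figure D1:**
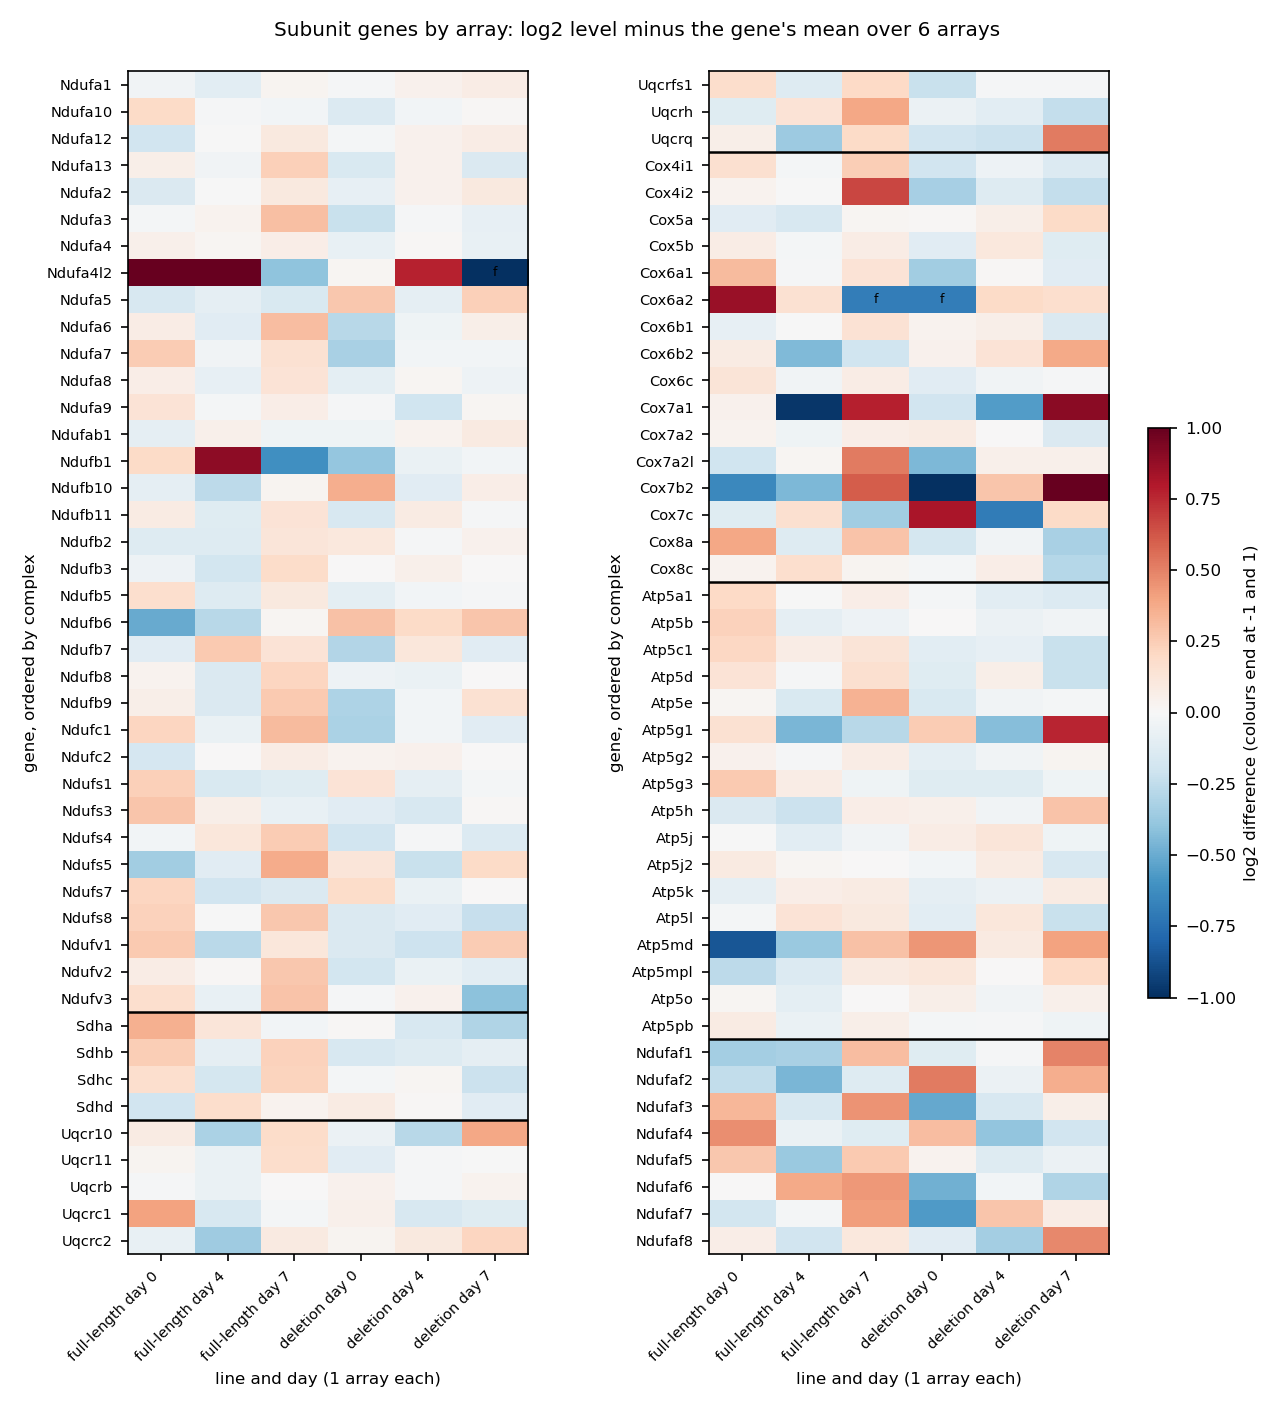
Level of each of the 88 measured genes on each array, as the log2 difference from the gene's own mean over 6 arrays; columns are the arrays by line and day, rows are genes ordered by complex, black lines separate complexes I to V and the complex I assembly factors, and f marks an array at the floor. Most rows are pale, and the strongest colours are in Ndufa4l2, Cox7b2 and Cox7a1, whose arrays span 3.81, 2.77 and 1.88.

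Differences between days and between lines were fitted with limma in 1 additive model of line and day over all genes, and a gene was called at a Benjamini-Hochberg adjusted p below 0.05. None of the 88 genes was called in any comparison. The background was 1.58% of 13277 genes for day 4 over day 0, 0.0151% for day 7 over day 4, 1.03% for day 7 over day 0 and 0.0% for the deletion over the full-length line. The comparisons between days share arrays, so they are not independent of one another. At an unadjusted p below 0.05, limma gave 6 of 88 genes for day 4 over day 0 (2 higher and 4 lower) against 16.2% of all genes. It gave 8 for day 7 over day 4 (7 higher and 1 lower) against 11.9%, and 7 for day 7 over day 0 (5 higher and 2 lower) against 17.3%. For the line difference it gave 7 (3 higher and 4 lower) against 12.2%. The 88 genes, 8 of them assembly factors, thus stood below the background share for both comparisons with day 0. In the other comparisons they were also below it, by less. These shares were not matched for brightness.

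The median fitted difference of the 88 genes was -0.02 for day 4 over day 0, against 0.04 over all genes, and 38 of the 88 were above 0. For day 7 over day 4 it was 0.08, with 68 of 88 above 0, while the median of all genes was -0.00. For day 7 over day 0 the medians were 0.07 and 0.06. The deletion line differed from the full-length line by a median of -0.09, with 57 of 88 genes lower, against -0.06 over all genes.

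Array by array, the median level of the 88 genes was 12.56, 12.40 and 12.70 at days 0, 4 and 7 in full-length cells and 12.44, 12.50 and 12.56 in deletion cells. In full-length cells the median change from day 0 to day 4 was -0.14 with 62 of 88 genes lower, followed by 0.18 from day 4 to day 7 with 72 of 88 higher. In the deletion line the same medians were 0.05 and 0.03. Shifting the arrays to equal medians moves the median of all genes from 0.03 to -0.13 for the first of these full-length changes and from 0.02 to 0.12 for the second, and the subunit medians then become -0.31 and 0.28. The cytoplasmic ribosomal proteins had a median change of -0.22 from day 0 to day 4 in full-length cells and of 0.24 in deletion cells. Whether the lines differ in this was not tested, since no array was repeated.

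With 1 array against 1 array there is no test, and a gene was counted at a difference of at least 1.5-fold where the brighter of the 2 arrays reached 2 times the floor. In the full-length line, 1 of 88 genes was higher at day 4 than at day 0 and 4 were lower, where all genes gave 16.3% and 10.9%. From day 4 to day 7, 7 were higher and 2 lower, against 12.5% and 9.21%. From day 0 to day 7, 8 were higher and 4 lower, against 19.1% and 11.2%. Every one of these counts is a smaller share of the 88 than the background.

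In the deletion line, 3 genes were higher and 3 lower at day 4 than at day 0, against 14.9% and 8.64% of all genes. From day 4 to day 7, 7 were higher and 1 lower, against 11.0% and 13.8%. From day 0 to day 7, 6 were higher and 2 lower, against 14.9% and 10.9%. Counting only genes past that fold in the same direction in both lines left none higher and Atp5g1 lower from day 0 to day 4, against 7.35% and 3.94%. From day 4 to day 7 it left Cox7a1 and Cox7b2 higher and Ndufa4l2 lower, against 3.83% and 3.14%. From day 0 to day 7 it left Cox7a1, Cox7b2, Ndufaf1 and Ndufaf7 higher and Ndufa4l2 lower, against 6.17% and 3.23%.

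**Figure D2:**
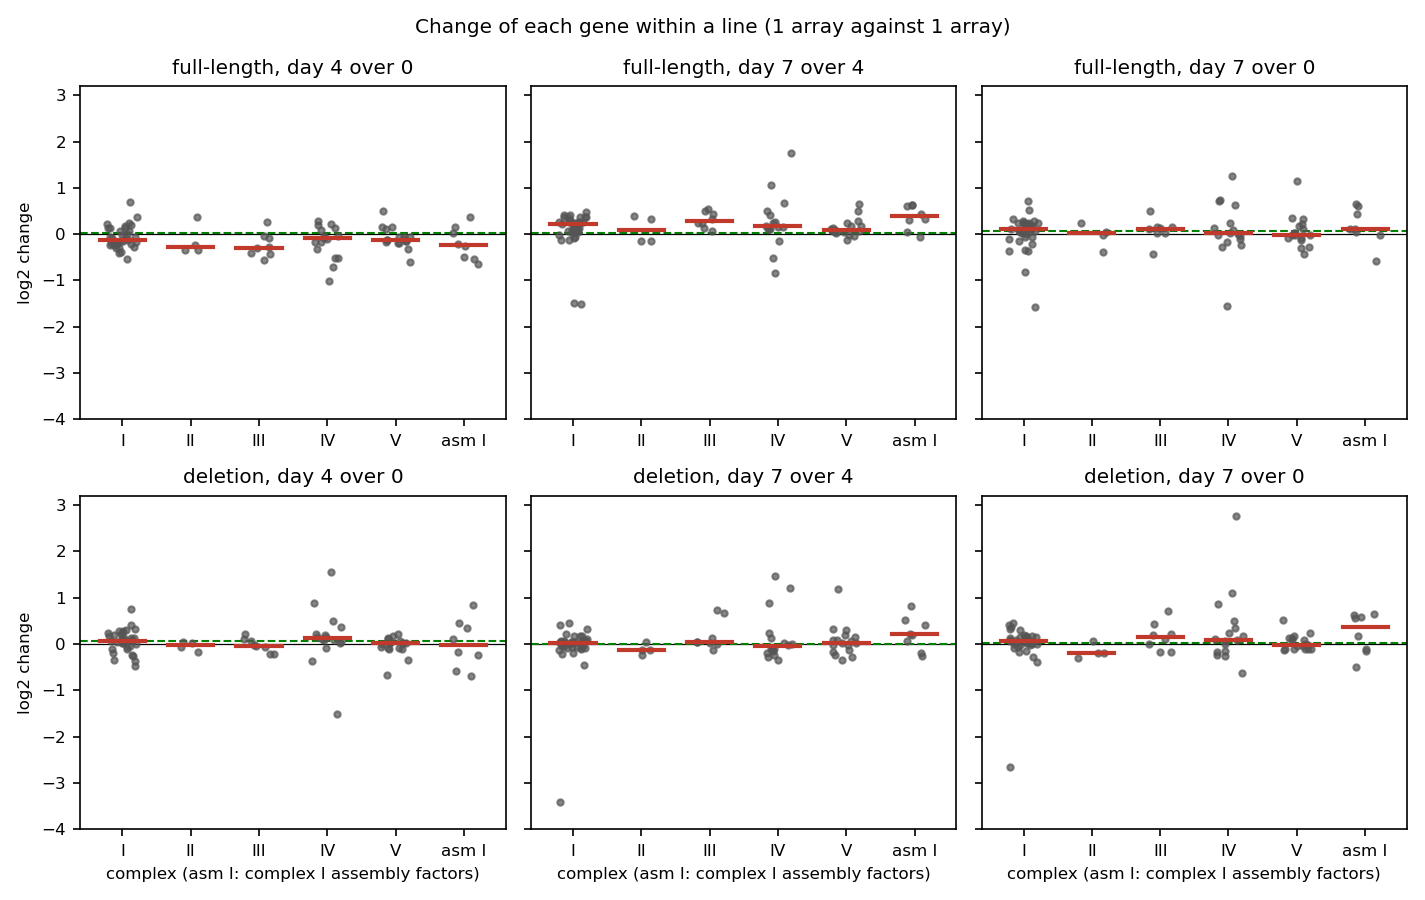
Log2 change of each gene within a line, 1 array against 1 array, by complex; each point is a gene, the red bar is the median of the complex, the black line is 0 and the dashed green line is the median of all 13277 genes. The medians of all complexes lie within 0.38 of 0, and the points farthest from 0 are Ndufa4l2 at -3.41 from day 4 to day 7 and Cox7b2 at 2.77 from day 0 to day 7, both in deletion cells.

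Complex I, the NADH dehydrogenase, was the largest group, with 35 of 36 genes measured. Its median fitted change was 0.00 for day 4 over day 0, 0.08 for day 7 over day 4 (29 of 35 above 0) and 0.10 for day 7 over day 0. Ndufs1, which carries iron-sulfur clusters in the arm that takes up electrons, read 12.05, 11.66 and 11.69 in full-length cells and 11.95, 11.72 and 11.79 in deletion cells. Ndufv1, the subunit that binds NADH, read 12.70, 12.17 and 12.55 in full-length cells and 12.29, 12.23 and 12.69 in deletion cells. Both genes were lowest at day 4 in both lines.

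Ndufs7, which passes electrons on towards ubiquinone, had the lowest fitted change of complex I for day 4 over day 0, -0.33 (SE 0.16, adjusted p = 0.36). It read 11.94, 11.53 and 11.58 in full-length cells and 11.91, 11.66 and 11.73 in deletion cells, so both day 0 arrays were above the other 4. Ndufs5, an accessory subunit, had the highest fitted change for day 7 over day 0, 0.40 (SE 0.22, adjusted p = 0.40). Its arrays read 10.32, 10.56 and 11.04 in full-length cells and 10.79, 10.45 and 10.86 in deletion cells. Day 7 was the highest in both lines, but the day 0 arrays alone differed by more than that fitted change from each other. Ndufb1, an accessory subunit read by a dim probe set, was scattered: 7.86, 8.56 and 7.05 in full-length cells and 7.28, 7.60 and 7.64 in deletion cells.

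Ndufa4l2 varied most of all 88 genes. It encodes a relative of Ndufa4 that is known as a hypoxia-induced gene. It read 9.18, 9.09 and 7.61 in full-length cells at days 0, 4 and 7, and 8.03 and 8.78 at days 0 and 4 in deletion cells. On the deletion array of day 7 it was below the floor, with a deposited value of 3.57. Both day 7 arrays were therefore lower than all 4 others. The change from day 0 to day 7 was -1.57 in full-length cells, and in deletion cells, with day 7 at the floor, it was -2.66 or lower. The limma estimate for day 7 over day 0 was -2.12 (SE 0.46, adjusted p = 0.079), and for day 7 over day 4 it was -2.45 (SE 0.46, adjusted p = 0.13). Neither passed the test, and both include the array set to the floor. Ndufa4 itself read 13.24, 13.21 and 13.26 in full-length cells and 13.12, 13.20 and 13.12 in deletion cells.

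The 8 complex I assembly factors build the enzyme and are not part of it. Their median range was 0.88, against 0.44 for the subunits of complexes I to V. Brightness was not matched, with median levels of 10.32 and 12.62, and all 8 had a range below 1. Their median fitted change was -0.16 for day 4 over day 0 and 0.36 for day 7 over day 4, where 7 of 8 were above 0. Ndufaf1, an early assembly factor, read 10.14, 10.16 and 10.79 in full-length cells and 10.36, 10.47 and 10.98 in deletion cells. Both day 7 arrays were above all others, and the limma estimate for day 7 over day 0 was 0.64 (SE 0.18, adjusted p = 0.14). Ndufaf4 went the other way, with 11.08, 10.55 and 10.49 in full-length cells and 10.92, 10.22 and 10.42 in deletion cells. Both day 0 arrays were above the other 4, and the estimate for day 4 over day 0 was -0.62 (SE 0.18, adjusted p = 0.15). Ndufaf7, a methyltransferase that modifies a complex I subunit, read 9.40, 9.56 and 10.00 in full-length cells and 9.02, 9.86 and 9.66 in deletion cells, and its estimate for day 7 over day 0 was 0.62 (SE 0.25, adjusted p = 0.26).

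Complex II, succinate dehydrogenase, also serves in the citric acid cycle and is made of 4 nuclear subunits. Sdha, which holds the active site for succinate, declined from 12.57 to 12.34 and 12.19 in full-length cells and from 12.23 to 12.06 and 11.92 in deletion cells. The estimate for day 7 over day 0 was -0.34 (SE 0.15, adjusted p = 0.30), and a second bright probe set gave -0.38. Sdhb, the iron-sulfur subunit, read 12.77, 12.43 and 12.75 in full-length cells and 12.36, 12.39 and 12.43 in deletion cells. The membrane anchor Sdhc read 12.18, 11.83 and 12.23 in full-length cells and 11.99, 12.03 and 11.79 in deletion cells. The other anchor, Sdhd, read 11.69, 12.06 and 11.92 and then 11.97, 11.90 and 11.77. The anchors followed no common course over the days.

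Complex III, the cytochrome bc1 complex, hands electrons from ubiquinol to cytochrome c. Its 8 genes all had a fitted change above 0 from day 4 to day 7, with a median of 0.15, and none was called. By line, 8 of 8 were above 0 in full-length cells, with a median of 0.29. In deletion cells 6 of 8 were above 0, with a median of 0.04. The largest was Uqcrq, a small subunit, which read 12.49, 12.07 and 12.62 in full-length cells and 12.24, 12.22 and 12.95 in deletion cells. Its estimate for day 7 over day 4 was 0.64 (SE 0.18, adjusted p = 0.26). Uqcr10, another small subunit, moved alike, with 12.13, 11.73 and 12.23 in full-length cells and 11.99, 11.77 and 12.43 in deletion cells, and an estimate of 0.58 (SE 0.16, adjusted p = 0.25). On these probe sets the 2 day 7 arrays of each gene were above all others. The dimmer probe sets of Uqcr10 gave 0.37 and 0.24 for the same step.

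Of the 2 large core proteins of complex III, Uqcrc1 read 13.63, 13.07 and 13.21 in full-length cells and 13.28, 13.07 and 13.11 in deletion cells, highest at day 0 in both. Its estimate for day 4 over day 0 was -0.38 (SE 0.16, adjusted p = 0.29). Uqcrc2 read 12.60, 12.32 and 12.76 in full-length cells and 12.70, 12.77 and 12.89 in deletion cells, highest at day 7 in both, and its estimate for day 7 over day 4 was 0.28 (SE 0.16, adjusted p = 0.56). Uqcrfs1, the Rieske iron-sulfur protein, stayed between 12.28 and 12.70.

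Complex IV, cytochrome c oxidase, held 5 of the 9 genes with a range of 1 or more. Cox7b2, a testis-enriched isoform of subunit VIIb, read 8.72, 8.91 and 9.97 in full-length cells and 8.08, 9.64 and 10.85 in deletion cells. Levels went up at each step in both lines, and both day 7 arrays were above all others. The change from day 0 to day 7 was 1.25 in full-length cells and 2.77 in deletion cells. The limma estimate was 2.01 (SE 0.37, adjusted p = 0.058), the smallest adjusted p of any of the 88 genes. With the arrays shifted to equal medians it fell to 0.035, and no other alternative called the gene. The smallest adjusted p of the 88 genes with limma was 0.076 with quantile normalization and 0.14 without the variance trend. It was 0.31 when dim genes were kept. Whether Cox7b2 passes the threshold thus turns on the processing.

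Cox7a1, the heart and skeletal muscle isoform of subunit VIIa, dipped and then climbed. It read 9.28, 8.26 and 10.01 in full-length cells and 9.04, 8.68 and 10.14 in deletion cells. In both lines day 4 was the lowest and day 7 the highest. The estimate for day 7 over day 4 was 1.60 (SE 0.25, adjusted p = 0.09), and for day 4 over day 0 it was -0.69 (SE 0.25, adjusted p = 0.24). The widely expressed isoform Cox7a2 read 14.18, 14.10 and 14.21 in full-length cells and 14.23, 14.15 and 14.00 in deletion cells, a spread of 0.23.

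Muscle markers were present on the same arrays. Of 8 heart and muscle markers 6 were measured, and their summed signal was 11.71, 13.12 and 12.76 in full-length cells and 12.09, 11.79 and 12.49 in deletion cells. From day 4 to day 7 the limma estimates of these markers went both ways: -1.40 (SE 0.60, adjusted p = 0.42) for Actc1, -1.06 (SE 0.34, adjusted p = 0.30) for Myh6, -0.28 for Acta2, 0.06 for Myl7 and 0.78 for Actn2. The remaining one, Mylpf, a myosin light chain of fast skeletal muscle, read 10.08, 8.23 and 10.56 in full-length cells and 10.94, 9.54 and 11.59 in deletion cells, and its rise from day 4 to day 7 of 2.19 (SE 0.20, adjusted p = 0.048 with limma) was called. From day 0 to day 4 the called markers also went both ways. With limma, Mylpf was lower, at -1.62 (SE 0.20, adjusted p = 0.017), and Actc1 was higher, at 3.51 (SE 0.60, adjusted p = 0.041). The other measured muscle markers were not called for that step. The part of muscle-like cells in the Cox7a1 values was not tested.

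The lines differ in a protein that maintains DNA methylation at CpG pairs, and the promoters of Cox7b2 and Cox7a1 are shown with these pairs marked. Neither gene was called between the lines. The limma estimates for the deletion over the full-length line were 0.32 (SE 0.31, adjusted p = 0.69) for Cox7b2 and 0.10 (SE 0.21, adjusted p = 0.87) for Cox7a1. A link between methylation and their levels was not tested. No methylation was measured here. The runs are the 250 bases before a start of the gene in RefSeq for GRCm38.p6, 5′ to 3′ on the strand of the gene, with each CpG pair in capitals. Cox7a2 and Cox6a1, widely expressed subunits whose levels were steadier, are given beside them.

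Cox7b2: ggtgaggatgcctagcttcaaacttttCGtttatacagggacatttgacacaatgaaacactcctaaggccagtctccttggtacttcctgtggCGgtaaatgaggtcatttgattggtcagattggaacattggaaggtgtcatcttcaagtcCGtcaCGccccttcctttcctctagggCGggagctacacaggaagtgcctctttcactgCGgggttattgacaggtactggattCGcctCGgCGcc

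Cox7a1: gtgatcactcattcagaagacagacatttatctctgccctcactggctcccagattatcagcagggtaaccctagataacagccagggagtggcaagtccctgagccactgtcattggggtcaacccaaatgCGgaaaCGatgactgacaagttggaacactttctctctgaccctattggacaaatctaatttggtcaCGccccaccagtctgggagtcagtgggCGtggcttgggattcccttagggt

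Cox7a2: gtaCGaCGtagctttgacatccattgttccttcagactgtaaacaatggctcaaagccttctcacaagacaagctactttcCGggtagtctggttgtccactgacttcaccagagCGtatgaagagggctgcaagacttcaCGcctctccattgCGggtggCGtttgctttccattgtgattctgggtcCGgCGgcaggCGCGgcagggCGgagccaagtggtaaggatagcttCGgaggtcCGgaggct

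Cox6a1: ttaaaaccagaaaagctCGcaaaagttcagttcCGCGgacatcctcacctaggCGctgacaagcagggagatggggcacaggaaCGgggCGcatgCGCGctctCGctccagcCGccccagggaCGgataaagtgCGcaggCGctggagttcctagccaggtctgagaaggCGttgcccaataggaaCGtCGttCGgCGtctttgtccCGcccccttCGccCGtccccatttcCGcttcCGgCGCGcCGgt

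The Cox7b2 run is chr5:71548206-71548455 on the minus strand and holds 9 CpG pairs. The Cox7a1 run is chr7:30183921-30184170 on the plus strand and holds 4. The Cox7a2 run, chr9:79759854-79760103 on the minus strand, lies before a start inside the annotated span of the gene (chr9:79755241-79771422) and holds 14, and the Cox6a1 run, chr5:115348959-115349208 on the minus strand, holds 26. The runs of the 2 variable isoforms thus have fewer CpG pairs than those of the 2 steadier genes, which is a description of 4 genes picked after their values were seen.

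Promoters were found in the RefSeq table for 74 of the 90 genes, some with several starts, which gave 79 windows of 300 bases (250 before to 50 after the start). A window held a median of 20 CpG pairs, with a range of 2 to 43, against a median of 7 in all 32851 windows of the table. The motif CCGGAAG, bound by ETS factors such as GABP, occurred on either strand in 24.1% of the windows against 8.86% of all windows. GCATGCG, the core of the site of NRF1, a known regulator of respiratory genes, occurred in 15.2% against 3.58%. AAGATGG, bound by YY1, occurred in 13.9% against 6.34%, and the TATA box letters TATAAA in 11.4% against 13.6%. The ETS and NRF1 letters each hold a CpG pair, and the windows were not matched for CpG content. Whether their shares exceed those of other windows rich in CpG pairs was not tested. In the runs above, the ETS motif lies 16 bases before the start of Cox6a1, on the opposite strand, and 1 overlapping pair of NRF1 motifs lies further upstream of it. The TATA letters lie 221 bases before the start of Cox7b2, also on the opposite strand. The ETS, NRF1 and YY1 letters were not found in the runs of Cox7b2, Cox7a1 and Cox7a2.

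In the other isoform groups of complex IV, the arrays of the common form spanned at most 0.71. Cox4i1, the common form of subunit IV, read 14.04, 13.86 and 14.13 in full-length cells and 13.69, 13.83 and 13.75 in deletion cells. Its lung isoform Cox4i2 was dim, at 6.14, 6.10 and 6.77 and then 5.77, 5.97 and 5.86. The full-length array of day 7 stood above the other 5 for Cox4i2, whose signal is near the floor on all of them.

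Cox6a1, the common form of subunit VIa, read 14.83, 14.50 and 14.65 in full-length cells and 14.16, 14.52 and 14.40 in deletion cells. The muscle form Cox6a2 read 6.92 and 6.21 at days 0 and 4 in full-length cells and 6.25 and 6.23 at days 4 and 7 in deletion cells, and it was at the floor on the other 2 arrays. Cox6b1, the common form of subunit VIb, stayed between 13.36 and 13.65. The testis form Cox6b2 read 11.17, 10.65 and 10.89 in full-length cells and 11.13, 11.23 and 11.47 in deletion cells.

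Cox8a, the common form of subunit VIII, read 13.24, 12.73 and 13.14 in full-length cells and 12.68, 12.82 and 12.53 in deletion cells. Cox8c, a testis form, read 8.26, 8.39 and 8.25 and then 8.20, 8.29 and 7.94. Cox7a2l, which helps to join complexes III and IV into supercomplexes, read 12.48, 12.70 and 13.20 in full-length cells and 12.23, 12.73 and 12.73 in deletion cells. Its lowest arrays were those of day 0, and the estimate for day 7 over day 0 was 0.61 (SE 0.17, adjusted p = 0.14). The other 2 probe sets of Cox7a2l gave 0.50 and 0.46.

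**Figure D3:**
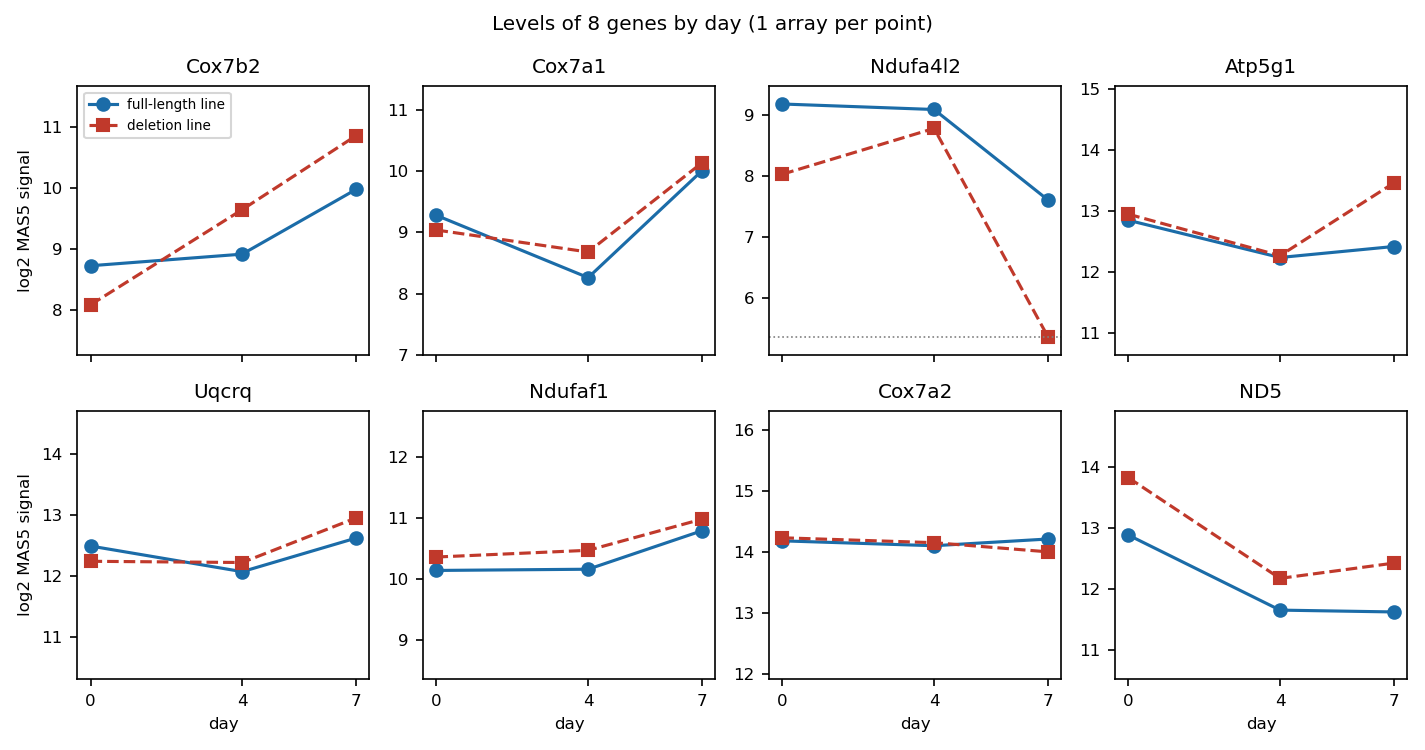
Log2 MAS5 signal of 8 genes by day, 1 array per point, full-length line in blue circles and deletion line in red squares, each panel spanning the same 4.4 log2 units; the dotted line in the Ndufa4l2 panel is the floor of 5.37. Cox7b2 reaches 9.97 and 10.85 at day 7, Cox7a1 is lowest at day 4, Ndufa4l2 is lowest at day 7, Cox7a2 is nearly flat, and ND5 is highest at day 0 in both lines.

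Complex V had the smallest median range, 0.36, and also the highest median level, 13.19. Of its 17 genes 15 had a range below 1. Its median fitted change was -0.02 for day 4 over day 0, 0.05 for day 7 over day 4 and -0.02 for day 7 over day 0. The alpha, beta and gamma subunits of the F1 part stayed in narrow bands. Atp5a1, the alpha subunit, lay between 13.79 and 14.12, and Atp5c1, the gamma shaft, between 13.70 and 14.13. Atp5b, the beta subunit, read 14.74, 14.42 and 14.46 in full-length cells and 14.51, 14.45 and 14.47 in deletion cells. Its highest array was full-length day 0, by 0.23 over the next.

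Subunit c, which forms the rotating ring, is encoded by 3 genes for the same mature protein, and their courses differed. Atp5g1 read 12.85, 12.24 and 12.42 in full-length cells and 12.95, 12.27 and 13.46 in deletion cells. Both lines were lower at day 4 than at day 0, with an estimate of -0.64 (SE 0.25, adjusted p = 0.26), and the deletion array of day 7 was the highest of all. Atp5g2 read 13.22, 13.16 and 13.25 in full-length cells and 13.08, 13.14 and 13.20 in deletion cells, a spread of 0.17. Atp5g3 read 14.49, 14.30 and 14.18 and then 14.10, 14.10 and 14.18.

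Atp5md, a small subunit of the membrane part, read 10.86, 11.35 and 12.01 in full-length cells and 12.16, 11.81 and 12.12 in deletion cells. The full-length arrays of days 0 and 4 were below the other 4, and the change from day 0 to day 7 was 1.15 in full-length cells and -0.04 in deletion cells. The estimate for day 7 over day 0 was 0.56 (SE 0.27, adjusted p = 0.34).

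The lines were then compared at each day. At day 0, 4 of 88 genes were at least 1.5-fold higher in deletion cells and 5 were lower, against 8.54% and 10.3% of all genes. At day 4, 1 was higher and 2 were lower, against 7.34% and 9.1%. At day 7, 3 were higher and 6 were lower, against 10.7% and 18.2%. None kept 1 direction past that fold at all 3 days, against 1.27% of all genes. The median difference was -0.17 at day 0 with 60 of 88 genes lower, 0.05 at day 4 and -0.11 at day 7. With the arrays shifted to equal medians these become -0.27, 0.21 and -0.08, where the medians of all genes become -0.15, 0.13 and -0.02.

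**Figure D4:**
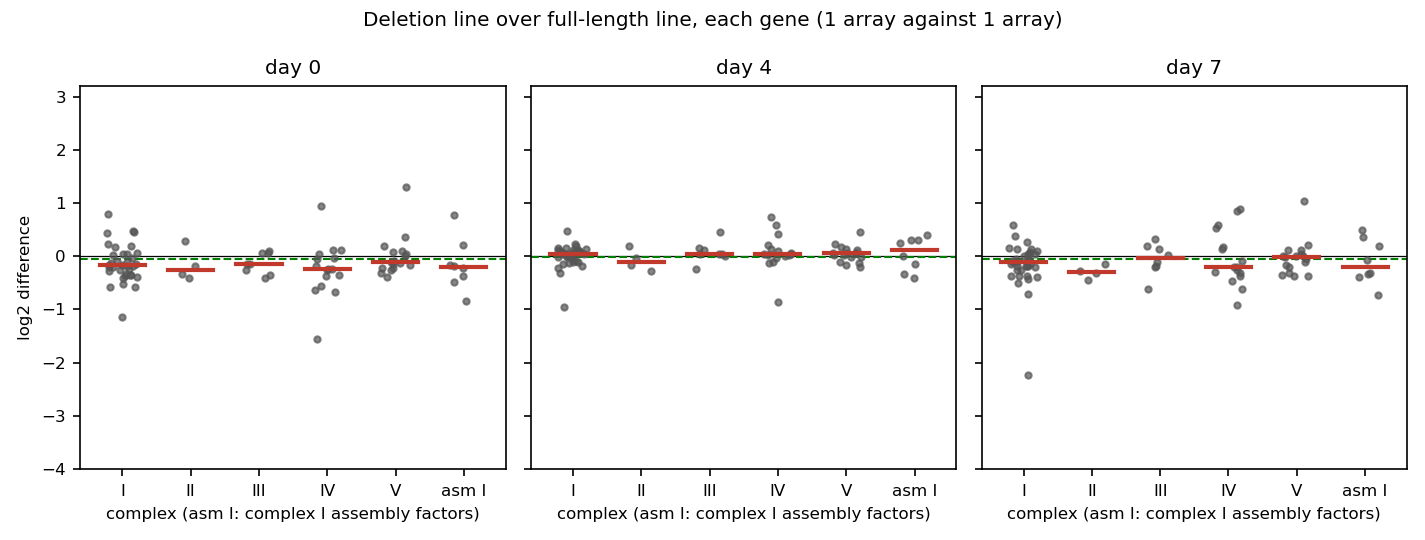
Log2 difference of each gene, deletion line over full-length line, 1 array against 1 array at days 0, 4 and 7, by complex; each point is a gene, the red bar is the median of the complex, the black line is 0 and the dashed green line is the median of all 13277 genes. The medians of complexes I to V lie between -0.29 and 0.06, and Ndufa4l2 at day 7 (-2.24, against the floor) and Cox6a2 at day 0 (-1.55, against the floor) are the lowest points.

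Ndufb6, an accessory subunit of complex I, read 12.19, 12.41 and 12.71 in full-length cells and 12.98, 12.88 and 12.97 in deletion cells, with all 3 deletion arrays above all full-length ones. The limma estimate was 0.51 (SE 0.14, adjusted p = 0.30). Its other probe set read 12.55, 12.47 and 12.76 in full-length cells and 12.34, 12.52 and 12.67 in deletion cells, a difference of -0.08. Of 42 genes with several bright probe sets, 21 had probe sets whose line differences differed in sign.

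Among the assembly factors, Ndufaf6 read 10.75, 11.13 and 11.18 in full-length cells and 10.27, 10.72 and 10.45 in deletion cells. Every deletion array was below every full-length one, and the estimate was -0.54 (SE 0.15, adjusted p = 0.30). Ndufaf2, which acts late in the assembly of complex I, went the other way, with 9.90, 9.69 and 10.02 in full-length cells and 10.67, 10.09 and 10.51 in deletion cells. All 3 deletion arrays were above all 3 full-length arrays, and the estimate was 0.55 (SE 0.16, adjusted p = 0.31).

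On the probe sets used, the 4 subunits of complex II all had a lower fitted level in deletion cells, with a median of -0.20. The lowest was Sdha at -0.30 (SE 0.12, adjusted p = 0.40), lower at each day, and the difference of Sdhd was only -0.01. A dimmer second probe set of Sdhd gave a line difference of 0.83, opposite in sign, and was higher in deletion cells at each day. Those of Sdha and Sdhc gave -0.21 and -0.62. In complex III the lowest was Uqcrh, the acidic hinge protein, at -0.26 (SE 0.16, adjusted p = 0.53). It read 12.90, 13.16 and 13.41 in full-length cells and 12.97, 12.92 and 12.79 in deletion cells. Its other bright probe set read 11.81, 12.41 and 12.63 in full-length cells and 12.78, 12.61 and 12.49 in deletion cells, which gives a line difference of 0.34, opposite in sign. In complex IV the lowest was Cox4i2, whose signal is near the floor, at -0.47 (SE 0.30, adjusted p = 0.56). Cox8a had -0.36 (SE 0.17, adjusted p = 0.43), and the highest was Cox6b2 at 0.37 (SE 0.17, adjusted p = 0.43). In complex V, Atp5c1 had -0.27 (SE 0.12, adjusted p = 0.43) and Atp5md 0.62 (SE 0.22, adjusted p = 0.34). None of these passed the test.

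The mitochondrially encoded subunits were represented by 1 named gene, ND5, a proton-pumping membrane subunit of complex I. It read 12.88, 11.65 and 11.62 in full-length cells and 13.82, 12.17 and 12.42 in deletion cells. Day 0 was the highest in both lines, and at each day the deletion line was above the full-length line. ND5 fell by day 4, with a limma estimate of -1.44 (SE 0.17, adjusted p = 0.014), and was also called lower at day 7 than at day 0, at -1.33 (SE 0.17, adjusted p = 0.025). From day 4 to day 7 the estimate was 0.11 (SE 0.17, adjusted p = 0.86), and the line difference of 0.75 (SE 0.14, adjusted p = 0.26) was not called. The direction held under each alternative tried, but the call did not. For day 4 over day 0 the adjusted p was 0.35 when dim genes were kept, 0.077 for the average of probe sets and 0.088 without the variance trend. It was between 0.16 and 0.31 with any 1 of the 4 arrays of days 0 and 4 left out. For day 7 over day 0 it was between 0.10 and 0.33 with any 1 of the 6 arrays left out.

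On the day 4 arrays where ND5 was lower, the nuclear complex I genes had a median fitted change of 0.00. The fibroblast marker sum also fell from day 0 to day 4, from 12.61 to 10.20 in full-length cells and from 13.83 to 10.06 in deletion cells. The part of other cell types in the ND5 values was not tested.

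Limma called none of the genes that support the complexes in any of the 4 comparisons. Their median ranges over the 6 arrays were 0.67 for assembly factors, 0.73 for the mobile carriers with ubiquinone synthesis, 0.68 for regulators and 0.36 for the citric acid cycle. Of 38 further assembly factors on the array 36 were measured, with a median fitted change of 0.08 for day 7 over day 0. In that comparison 6 of the 36 had an unadjusted limma p below 0.05 (4 higher and 2 lower), against 17.3% of all genes. The lowest was Sco1, a copper chaperone of complex IV, at -0.95 (SE 0.37, adjusted p = 0.25). All 15 citric acid cycle genes were measured, with medians of -0.08 for day 4 over day 0 and 0.12 for day 7 over day 4. Of the 15, 1 and 0 had an unadjusted limma p below 0.05, against 16.2% and 11.9% of all genes. Of 19 regulators of mitochondrial genes 18 were measured. The one with the largest change at day 4 was Tfb2m, which initiates transcription of mitochondrial DNA. It read 10.39, 9.41 and 9.67 in full-length cells and 10.35, 9.66 and 10.30 in deletion cells, and both day 0 arrays were the highest. Its estimate for day 4 over day 0 was -0.84 (SE 0.23, adjusted p = 0.13).

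The 14 genes of the mobile carriers had a median fitted change of -0.14 for day 4 over day 0 and 0.20 for day 7 over day 4. For the latter step 3 of the 14 had an unadjusted limma p below 0.05, all higher, against 11.9% of all genes. Cycs, the somatic cytochrome c, stayed between 13.34 and 13.91. Cyct, the testis form, read 9.86, 8.83 and 10.20 in full-length cells and 8.56, 8.97 and 10.54 in deletion cells, highest at day 7 in both. Its estimate for day 7 over day 4 was 1.47 (SE 0.39, adjusted p = 0.23). Coq3, an enzyme of ubiquinone synthesis, read 10.13, 9.87 and 10.65 in full-length cells and 10.13, 10.05 and 11.06 in deletion cells, and its estimate for the same step was 0.90 (SE 0.20, adjusted p = 0.18). None of the 76 mitochondrial ribosomal proteins was called, with medians of -0.07 for day 4 over day 0 and 0.12 for day 7 over day 4. At an unadjusted p below 0.05 limma gave 3 of the 76, all lower, for the first step, against 16.2% of all genes. For the second step it gave 6 (5 higher and 1 lower), against 11.9%.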

How the data were processed

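RNA of 6 samples was labelled with biotin and hybridised to Affymetrix arrays, 1 per line and day, and grouped by the sample titles. Per the submitters' processing notes, the authors used MAS5 to compute the deposited signals. They were read as log2 from the deposited values: 2 to their power had a 2% trimmed mean of 496.7 to 496.9 on all 6 arrays. For the MAS5 version, the scaling target and the log base, nothing is given in the sources used here. Global scaling removes a shift shared by most genes, and the number of arrays limits the precision.

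Signals under a floor (the median over arrays of the 40th percentile, 41.2) were raised to it, and log2 was taken. Of 45037 probe sets, 34945 had 1 gene symbol in the platform annotation, 932 had several and 9160 none. A gene with several probe sets was read from the one of highest mean signal. The 10 probe sets that carry a subunit symbol together with another gene name no member. limma 3.58.1 in R 4.3.3 fitted line and day as additive factors with a variance trend, two-sided, with 2 residual and 5.63 prior degrees of freedom, and was tested on simulated data. Python 3.11.15 made the tables. Alternatives were another floor or none, equal medians, quantile normalization, no filter, averaged probe sets, no trend, days only, a 2-fold threshold and leaving out each array.

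Genes named with full values were the highest and lowest of each complex in each modelled comparison among those with a mean signal at least 4 times the floor, those 2-fold apart between lines, the isoform groups and up to 4 genes of each other list. Ndufs1, Ndufv1, Uqcr10, Cox7c, Uqcrfs1 and Atp5a1, the CpG counts and the 4 promoters were chosen after values were seen. The members and all lists were chosen with earlier results of these data known.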

Additional observations from a re-analysis of the deposited data

Results flagged for a closer look

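In 11 cases the lines moved in opposite directions between the same days and their changes differed by at least 2-fold for a gene whose brightest array reached 2 times the floor, or by at least 0.20 for the median of a complex. Smaller opposite moves are not listed. Each rests on 1 array per line and day, and none of these differences was tested. Each value is the change of the deletion line minus that of the full-length line, on the log2 scale.

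Atp5md changed by 1.15 from day 0 to day 7 in full-length cells and by -0.04 in deletion cells, a difference of -1.19. Cox7c, read by a dim probe set, changed from day 0 to day 4 by 0.28 and -1.52 (a difference of -1.80) and from day 4 to day 7 by -0.51 and 0.89 (a difference of 1.40). Ndufb1, also dim, changed from day 4 to day 7 by -1.51 and 0.04 (a difference of 1.55) and from day 0 to day 7 by -0.81 and 0.36 (a difference of 1.17). Cox6a2, at the floor on 2 arrays, differed by 1.59 from day 0 to day 4 (-0.71 and 0.88) and by 2.42 from day 0 to day 7 (-1.55 and 0.86).

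The median of complex IV differed by 0.21 from day 0 to day 4 (-0.09 and 0.12) and by -0.21 from day 4 to day 7 (0.17 and -0.05). The median of complex II differed by -0.23 from day 4 to day 7 (0.09 and -0.14) and by -0.22 from day 0 to day 7 (0.02 and -0.20).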

How the results depend on the processing

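Limma called none of the 88 genes in any comparison under any alternative except 1: with arrays shifted to equal medians, 1 gene, Cox7b2, was called for day 7 over day 0 (adjusted p = 0.035). The smallest adjusted p over the other alternatives ranged from 0.065 to 0.31. The median change for day 7 over day 0, 0.07, became 0.12 with quantile normalization and 0.05 without the filter on dim genes, and lay between 0.02 and 0.11 with 1 array left out. That for day 4 over day 0, -0.02, was 0.01 with quantile normalization and -0.13 to 0.06 with 1 array left out. That for day 7 over day 4 was 0.02 to 0.18, and the line difference -0.14 to -0.05, with 1 array left out. The gene comparisons at least 1.5-fold apart, 69 over 9 pairs of arrays, became 23 at 2-fold. Single subunit estimates were tried only where the unadjusted limma p was below 0.05 in the main fit, and none changed direction. That choice favours a stable sign, and the estimates of the other genes were not examined in this way. With 1 array left out, the lone array of a day is assumed to vary like the others. The model compares days within lines, and without the line as a term it also called 0 of the 88. Genes near the floor, such as Cox4i2, Cox6a2 and Cox7c, are limited by signal.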

Other observations

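Some subunits were read only by probe sets that carry several symbols and so stood outside the 90 genes. A probe set of Ndufb4 with Ndufb4b and Ndufb4c read 12.49, 12.18 and 12.82 in full-length cells at days 0, 4 and 7 and 12.67, 12.48 and 12.65 in deletion cells. It was well above the floor on every array, unlike the single-symbol probe set of Ndufb4. The brighter probe set of Ndufa11 with Ndufa11b read 12.18, 12.50 and 12.69 in full-length cells and 12.54, 12.63 and 12.72 in deletion cells, lowest at day 0 in both. That of Ndufs6 with Ndufs6b was steady, at 12.54, 12.45 and 12.40 and then 12.62, 12.44 and 12.41.

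Slc25a31, the ADP/ATP carrier of male germ cells, read 8.18, 9.49 and 8.97 in full-length cells and 8.78, 8.84 and 11.07 in deletion cells. The deletion array of day 7 stood above the other 5. It was set beside the testis forms Cox7b2 and Cyct after the values were seen. These 3 genes and the testis form Cox6b2 were each highest on the deletion array of day 7, while the testis form Cox8c was lowest there, at 7.94. The limma estimate of Slc25a31 for day 7 over day 0 was 1.54 (SE 0.55, adjusted p = 0.21).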
